A study of Rattus norvegicus with 9 samples.

Results

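The numbered ZFP genes of the rat are zinc finger genes named only by a number, and 156 of them are described here among 18006 genes with values. They were chosen by their symbol, the letters Zfp followed by digits alone with Zfp36 left out, and selected on their level, for which 3 or more of the 9 samples had to reach 1 FPKM. FPKM is a fragment count set against transcript length and mapped fragments, a level corrected for transcript length and sequencing depth. Of 233 such genes with values, 156 passed this minimum and 77 did not. Most proteins of this kind hold a row of fingers, each a short loop in which cysteine and histidine side chains grip a zinc ion, and a row of fingers reads a stretch of DNA. Many of the genes in this family also encode a KRAB domain, which recruits Trim28 (KAP1) and with it enzymes that compact chromatin and silence mobile elements, whereas others act without KRAB as activators, as adaptors of corepressors or on RNA. In mast cells, antigen that crosslinks IgE on its high-affinity receptor sets off degranulation and a wave of new transcription.

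RNA was sequenced from RBL-2H3, a line derived from a basophilic leukemia of the rat that serves as a model of mast cells, in 3 groups of 3 samples. Samples named Ctrl carry the treatment label untreated, although a protocol field shared by all 9 samples describes IgE and antigen. DNP samples were given 50 ng/ml of anti-DNP IgE for 12 h and then 100 ng/ml of the antigen DNP-HSA for 4 h. PF samples had the same IgE and antigen, with a pretreatment of 1 h with PF before the antigen. The labels do not say what PF is, and its dose is not given in the sources used here. For PF replicates 1, 2 and 3 the treatment field gives antigen for 4, 5 and 6 h, and the protocol field gives 4 h, so time and replicate cannot be told apart within this group. The labels also name Illumina protocols for the libraries where the study's methods name BGISEQ-500, and they give peripheral blood as tissue and blood corpuscle as cell type for what is a cultured line. Nothing in the labels says that replicates were separate cultures, so p-values measure only the spread between these samples, which may be technical.

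Mast cell markers fitted the line rather than the tissue label. Of 16 mast cell markers, 14 had values, all reached 1 FPKM in at least 1 sample, and their sum lay between 5659 and 6045 FPKM in the 9 samples, with Srgn as the most abundant at a mean of 2846 FPKM. Fcer1a, the IgE-binding chain of the receptor, had group means of 442, 424 and 482 FPKM in Ctrl, DNP and PF. All 4 red blood cell markers stayed under 1 FPKM in every sample and summed to at most 1.12 FPKM, with Hba1 the highest at a mean of 0.329 FPKM. B cell markers with values (3 of 4) summed to at most 1.15 FPKM, and of 5 macrophage markers only Cd68 reached 1 FPKM in any sample, at a mean of 1.24 FPKM. Of 5 T cell markers only Cd3e did so, at a mean of 8.28 FPKM, while Cd3d was listed at 0 in 8 of 9 samples. None of the 4 neutrophil markers had a value in any sample, so they could not be compared. Summed FPKM over all genes was 580702, 591539 and 584498 in Ctrl, 578291, 573023 and 582577 in DNP, and 616992, 630069 and 610206 in PF. Read depth is unknown from FPKM values, and the higher sums of the PF samples mean that the scaling of samples bears on the PF comparisons, so the main counts and medians of the members are given under other scalings too.

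Numbered ZFP genes were low among expressed genes. Their mean over 9 samples had a median of 4.95 FPKM, against 14.04 FPKM over all genes past the same minimum, and ran from 0.739 FPKM for Zfp51 to 89.7 FPKM for Zfp207. Only 13 members had a mean of at least 20 FPKM, 76 had at least 5 and 38 lay under 2. The most abundant member, Zfp207 (BuGZ), helps load the checkpoint protein Bub3 on kinetochores and had 91.0 ± 4.97 FPKM in Ctrl, 87.8 ± 0.891 in DNP and 90.4 ± 5.52 in PF (SD, n = 3). Next came Zfp414 with 62.9, 61.8 and 60.5 FPKM in the same order, and Zfp91, a ubiquitin ligase of the non-canonical NF-κB pathway, with 41.8, 46.9 and 43.3 FPKM. Zfp598, the ligase that marks collided ribosomes, had 34.8, 36.9 and 37.2 FPKM. Of these genes only Zfp91 was called in any comparison, at 0.16 in DNP against Ctrl and −0.11 in PF against DNP (limma, adjusted p = 0.0232 and 0.0480), and both calls rested on single samples, the first being lost without DNP replicate 1, 2 or 3 (0.12 to 0.18). In contrast Zfp868, also among the 5 most abundant members, stood at 35.7 ± 0.661 FPKM in Ctrl, 31.2 ± 0.408 in DNP and 21.6 ± 1.86 in PF. RSEM divides reads that fit several transcripts by estimate, so levels of near-identical paralogs in this family are uncertain.

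Because the level minimum chose the genes, it also shaped the list. At or above 1 FPKM in all 9 samples were 125 members, and 31 were not. Among the 31, 15 reached the minimum in no PF sample, 5 in no DNP sample and 2 in no Ctrl sample. Just inside the minimum were Zfp69, Zfp9 and Zfp141, with 1, 1.03 and 1.08 FPKM in the lowest of the 3 samples where they were highest, and just outside were Zfp319, Zfp579 and Zfp213 with 0.99, 0.92 and 0.87 FPKM. Zfp27 and Zfp90 were level with Zfp141 at 1.08 FPKM. Zfp69 was the only member at the minimum in PF samples alone, with 0.54, 0.48 and 0.63 FPKM in Ctrl, 0.62, 0.78 and 0.96 in DNP and 1.11, 1.00 and 1.21 in PF. Zfp36, left out by the rule, encodes the mRNA-destabilising protein tristetraprolin and had 78.8 ± 4.81 FPKM in Ctrl, 64.4 ± 3.004 in DNP and 77.0 ± 6.82 in PF (SD, n = 3).

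Between Ctrl and DNP few numbered ZFP genes moved far. Ctrl samples are labelled untreated, so effects of IgE and of antigen cannot be told apart in this comparison. Among 154 members tested (1 FPKM or more in at least 3 of the 6 samples compared), 41 or 26.6% passed an adjusted p of 0.05 in limma, where 29.2% of 10392 genes did, so their number was near the background. Higher in DNP were 14 members, against 14.7% of all genes tested, and lower were 27, against 14.4%, which makes 9.09% and 17.5% of the members tested. The median log2 fold change, on the log2(FPKM + 1) scale that understates changes of low genes, was −0.08 over the members and −0.01 over all genes tested. The member median was −0.07 with samples scaled by median ratios, −0.06 with each sample scaled to a sum of 1000000 and −0.07 with each brought to the average of the 9 sums (the mean sum). The split depended on scaling: with a sum of 1000000, 14 members were higher and 17 lower, against 15.3% and 11.7% of all genes tested. The higher share of member calls went from 34.1% to 45.2%, and that of all genes called from 50.5% to 56.8%. Fewer members were called with any 1 sample left out: 27, 26 and 31 without Ctrl replicates 1, 2 and 3, and 20, 23 and 25 without DNP replicates 1, 2 and 3. In the same order the lower calls came to 16, 18, 17, 12, 17 and 16 and the higher calls to 11, 8, 14, 8, 6 and 9. The calls made up 13.2% to 20.8% of the members tested. Calls over all genes fell too, from 29.2% to between 20.3% and 26.5%, with 9.82% to 12.7% lower and 10.3% to 13.8% higher.

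Among members higher in DNP, Zfp580 led with 1.59, 1.68 and 1.81 FPKM in Ctrl and 2.76, 3.15 and 3.83 FPKM in DNP. Every DNP sample lay above every Ctrl sample, and the log2 fold change was 0.65 (SE 0.106, limma, adjusted p = 0.00312). Zfp692 (AREBP), a repressor of a gluconeogenic gene that is phosphorylated by the energy-sensing kinase AMPK, had 9.56, 9.09 and 9.98 FPKM in Ctrl and 12.9, 14.2 and 14.2 FPKM in DNP. Its groups did not overlap either, and it rose by 0.49 (SE 0.0604, limma, adjusted p = 0.000966). Zfp455 rose by 0.49, Zfp862 by 0.53, Zfp869 by 0.32 and Zfp958 by 0.27, with limma adjusted p of 0.00197, 0.00518, 0.00180 and 0.00592. The calls of these 6 genes held without any single sample, with log2 fold changes between 0.23 for Zfp958 and 0.73 for Zfp580. Zfp637 at 0.44, Zfp161 at 0.38, Zfp451 at 0.34 and Zfp62 at 0.32 were called with all 6 samples and not without some of them. Zfp637 was lost without Ctrl replicate 1 or 2 or DNP replicate 2 or 3 (0.37 to 0.56), Zfp161 (now named Zbtb14) without Ctrl replicate 2 or DNP replicate 2 or 3 (0.28 to 0.45), Zfp451, a SUMO ligase, without Ctrl replicate 1 or DNP replicate 1 or 2 (0.29 to 0.40), and Zfp62 without Ctrl replicate 2 or DNP replicate 1 or 2 (0.24 to 0.40).

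Zfp566 had the lowest log2 fold change on the log2(FPKM + 1) scale, although Zfp446 had the lower ratio of group means, 0.619 against 0.672. Zfp566 had 12.8, 12.8 and 11.03 FPKM in Ctrl and 8.43, 8.24 and 7.93 FPKM in DNP. All 3 DNP samples were below all 3 Ctrl samples, and the log2 fold change was −0.52 (SE 0.0678, limma, adjusted p = 0.00118). Zfp787 went from 8.16 ± 0.580 to 5.49 ± 0.335 FPKM and Zfp446 from 3.25 ± 0.312 to 2.01 ± 0.169 FPKM (SD, n = 3), each at −0.50. Zfp652, which binds ETO-family corepressors, went from 7.61 ± 0.193 to 5.57 ± 0.582 FPKM (SD, n = 3), at −0.39. Limma adjusted p for these last 3 genes were 0.00187, 0.00486 and 0.00671. Zfp772 and Zfp157 fell by 0.39 and 0.33. These 6 calls held without any single sample. The remaining genes at this end were Zfp251 at −0.34, Zfp12 at −0.32, Zfp212 at −0.31 and Zfp865 at −0.30, and each lost its call without at least 1 of the samples. Zfp212 lost its call without DNP replicate 1, and Zfp12 did so without Ctrl replicate 1 or 3 or DNP replicate 1 or 3. Zfp251 lost it without Ctrl replicate 1, 2 or 3 or DNP replicate 1 or 3, and Zfp865 without any 1 of the 6 samples. Without a sample the values were −0.36 to −0.25 for Zfp212, −0.41 to −0.25 for Zfp12, −0.41 to −0.26 for Zfp251 and −0.34 to −0.24 for Zfp865. Scaling to a common sum also ended the calls of Zfp251 and Zfp12.

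The comparison of PF with DNP, which asks what PF pretreatment changed in stimulated cells, showed lower levels across much of the family. Of 149 members tested, 81 were lower in PF, against 30.7% of all 10329 genes tested, and 6 were higher, against 18.1%, while 62 were not called. As shares of the members tested these are 54.4% lower and 4.03% higher, and the 87 calls in either direction (58.4%) stood against 48.8% of all genes. The median log2 fold change was −0.30 over the members, with quartiles at −0.58 and −0.05, and −0.04 over all genes tested. A log2 fold change of −0.5 or less was seen in 47 members, or 31.5%, against 10.9% of all genes tested, and 10 members lay below −1, where 218 of all 10329 genes did, with Zfp830 next to them at −1.0. In 88 members every PF sample lay below every DNP sample, a pattern shown by 35.4% of all genes. Members that pass the minimum only through DNP had to be lower in PF, so these counts describe the members tested and are no test of the family. Without any filter on low values, 228 numbered ZFP genes could be tested, and 87 were lower and 6 higher, against 18% and 9.3% of all 17414 genes.

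The scaling of samples moved these counts. Of all genes called in PF against DNP, 37.1% were higher with values as deposited, 51.5% with median ratios, 16.6% with a sum of 1000000 and 16.8% with the mean sum. The median over all genes moved from −0.04 to 0.02 with median ratios and to −0.13 with either sum. More members were lower than higher under each scaling. By median ratios 75 of 149 tested were lower and 9 higher, against 25.2% and 26.7% of all genes tested. With a sum of 1000000 they were 100 and 4 of 156, against 40.2% and 8.03%. With the mean sum they were 98 and 4 of 148, against 41.7% and 8.42%. Member medians in this order were −0.25, −0.40 and −0.37. Summed over the 156 members, FPKM was 1393 ± 10.5 in Ctrl, 1338 ± 8.91 in DNP and 1110 ± 22.4 in PF (SD, n = 3), which is 0.830 times the DNP sum in PF. That sum took 0.228% to 0.235% of all FPKM in DNP samples and 0.172% to 0.185% in PF samples, and no PF sample overlapped a DNP sample. Since 15 members reached the minimum in no PF sample and passed through the other groups, these sums only describe the members chosen. Split by the 9-sample mean, with values as deposited, 42 of 73 members under 5 FPKM were lower and 2 higher. Of all genes tested at such levels 31.6% were lower and 7.37% higher. At or above 5 FPKM 39 of 76 members were lower and 4 higher, against 30.4% and 21.4%. Medians were −0.32 in members and −0.11 in all genes under 5 FPKM, and −0.21 and −0.02 at or above it. PF replicate 1, whose labels give 4 h in both fields, was also set alone against the DNP samples, and then 60 members were lower and 4 higher, against 24% and 11.5% of all 10209 genes. With a single PF sample the spread comes from the DNP samples alone, and whether the labelled time matters was not tested.

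**Figure D1:**
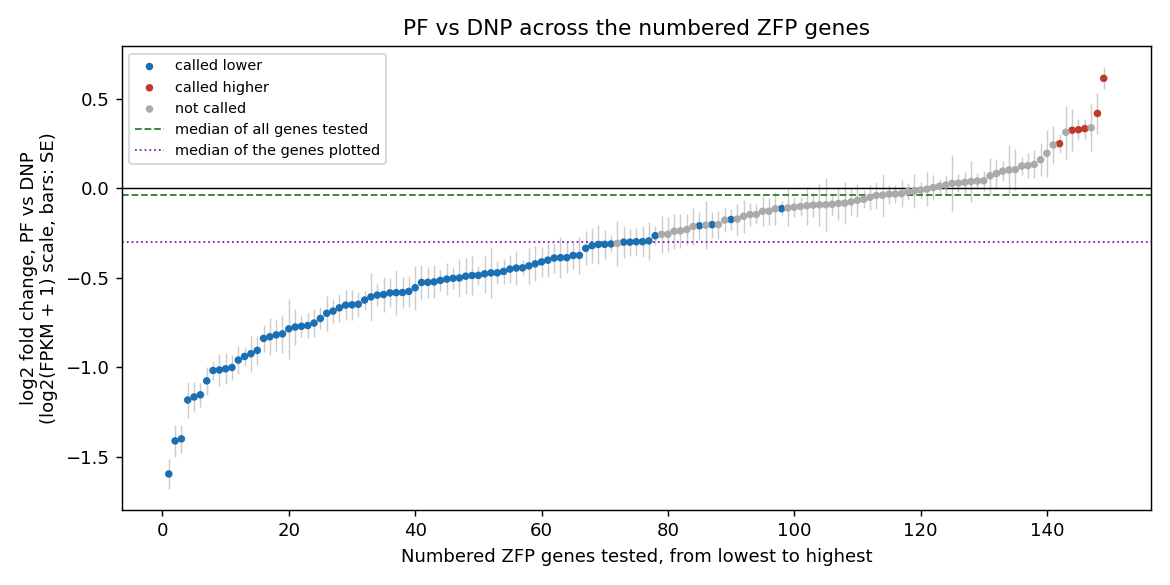
Log2 fold change of PF against DNP on the log2(FPKM + 1) scale (vertical axis, bars are SE) for the 149 numbered ZFP genes tested, ordered from lowest to highest (horizontal axis), with 81 called lower, 6 called higher and 62 not called in limma. The dotted line is their median, −0.30, and the dashed line the median of all genes tested, −0.04, which becomes 0.02 with scaling by median ratios while that of the members becomes −0.25.

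The genes with the lowest log2 fold changes on the log2(FPKM + 1) scale stood far lower in PF than in DNP. By ratio of group means, Zfp51 at 0.181, Zfp628 at 0.229 and Zfp862 at 0.260 lay under Zfp455 at 0.264. Zfp51 passed the minimum through DNP alone and so had to be lower in PF. Zfp455 had 10.4, 9.69 and 9.46 FPKM in DNP and 2.66, 2.27 and 2.88 FPKM in PF. Its log2 fold change was −1.59 (SE 0.0815, limma, adjusted p = 1.38e-06), and although it had risen in DNP against Ctrl, its PF samples lay below its Ctrl samples of 6.99, 6.10 and 7.13 FPKM too. Zfp628, needed for male germ cell development, had 4.39, 4.03 and 4.20 FPKM in DNP and 0.88, 1.14 and 0.87 FPKM in PF. It fell by 1.41 (SE 0.0884, limma, adjusted p = 4.11e-06), with wide space between the groups. Zfp458 had 11.9, 12.0 and 13.8 FPKM in DNP and 4.07, 3.83 and 4.51 FPKM in PF. The Ctrl values of Zfp458, 13.3, 12.8 and 12.7 FPKM, lay among those of DNP, and the log2 fold change in PF was −1.40 (SE 0.0786, limma, adjusted p = 2.34e-06). Zfp862 had 2.86, 3.41 and 2.99 FPKM in DNP and 0.64, 0.94 and 0.83 FPKM in PF, at −1.18. It passed the minimum in DNP and in no PF sample, so that it had to be lower in PF, and its value is a description.

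Others of the 10 lowest were Zfp84 at −1.16, Zfp46 at −1.15, Zfp748 at −1.07, Zfp869 at −1.02, Zfp275 at −1.01 and Zfp169 at −1.01, each with every PF sample under every DNP sample. Zfp46 had 6.27, 6.34 and 6.64 FPKM in DNP and 2.38, 2.25 and 2.38 FPKM in PF. Zfp869 had 16.7, 17.6 and 17.6 FPKM in DNP and 7.90, 8.28 and 7.94 FPKM in PF. Between them these genes covered low and middle levels, from Zfp84 at 1.21 ± 0.135 FPKM in PF to Zfp869 at 8.04 ± 0.209 FPKM (SD, n = 3). Leaving out any single sample kept the calls of these genes other than Zfp862, and the values then ran from −1.65 for Zfp455 to −0.96 for Zfp275.

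**Figure D2:**
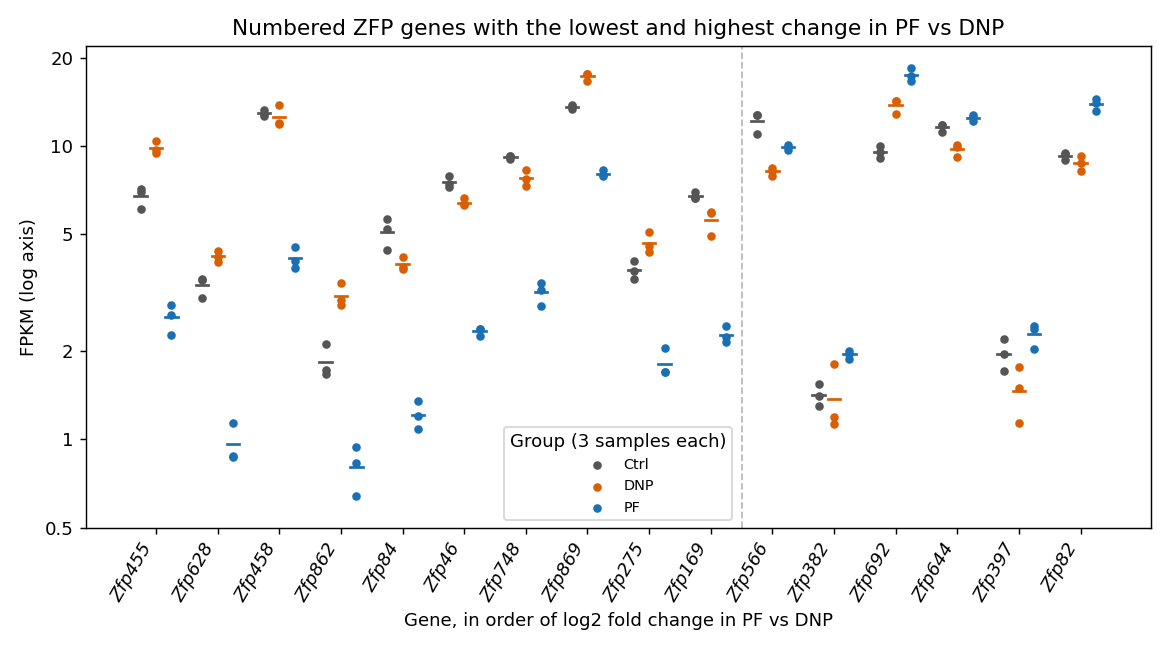
FPKM (vertical axis, log scale) of the 10 members called with the lowest log2 fold change in PF against DNP and, right of the dashed line, the 6 members called higher, in order of that fold change (horizontal axis), with a point for each sample and a bar for the mean of each group of 3. PF points of Zfp455 lie between 2.27 and 2.88 FPKM under DNP points of 9.46 to 10.4, and those of Zfp82 between 13.2 and 14.5 FPKM over DNP points of 8.22 to 9.22.

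Only 6 members were higher in PF than in DNP. Zfp82 had 8.76, 9.22 and 8.22 FPKM in DNP and 14.5, 13.99 and 13.2 FPKM in PF. PF samples lay above all DNP and all Ctrl samples (9.45, 8.98 and 9.36 FPKM), and Zfp82 rose by 0.61 (SE 0.0611, limma, adjusted p = 6.21e-05). Zfp692 had 18.5, 16.7 and 17.3 FPKM in PF, above its DNP samples, which were themselves above Ctrl, and rose by 0.33 (SE 0.0588, limma, adjusted p = 0.00179). Zfp644, a partner of the histone methyltransferases Ehmt1 and Ehmt2, had 10.1, 9.20 and 9.92 FPKM in DNP and 12.8, 12.1 and 12.6 FPKM in PF. That is a rise of 0.33 (SE 0.0555, limma, adjusted p = 0.00119) to a level near that of Ctrl, 11.6 ± 0.396 FPKM (SD, n = 3). Zfp397 rose by 0.42 (SE 0.113, limma, adjusted p = 0.0141) from 1.47 ± 0.311 to 2.28 ± 0.219 FPKM (SD, n = 3). Zfp566 rose by 0.25, from 8.20 ± 0.252 to 9.92 ± 0.217 FPKM (SD, n = 3), and with a sum of 1000000 and the mean sum it was at 0.17 and 0.16 and lost its call. Zfp382, a KRAB repressor, was at 0.32 (limma, adjusted p = 0.0462) and lost its call with either sum and without DNP replicate 2 or 3 or PF replicate 1, 2 or 3, at values of 0.25 to 0.45.

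Members listed for known roles as transcription factors or chromatin cofactors numbered 21, all tested. Of these 13 were lower in PF than in DNP, against 30.7% of all genes tested, 1 was higher (Zfp644), against 18.1%, and 7 were not called, with a median of −0.30. The 13 include Zfp503, which passed the minimum through DNP alone and so had to be lower. By median ratios the counts were 12 lower and 1 higher, against 25.2% and 26.7% of all genes tested. With either sum they were 15 lower and 1 higher, against 40.2% to 41.7% and 8.03% to 8.42%. Zfp281, a factor that binds GC-rich promoters in stem cells, had 13.1, 12.8 and 11.9 FPKM in DNP and 5.98, 5.36 and 6.65 FPKM in PF. Its Ctrl samples, at 12.1, 10.9 and 12.3 FPKM, lay close to DNP, and it fell by 0.96 (SE 0.0776, limma, adjusted p = 1.79e-05). Zfp148, its closest relative in binding the same kind of DNA, was at 11.01 FPKM in DNP and 10.3 in PF, with −0.09 (limma, adjusted p = 0.286). Zfp217, a partner of the CoREST corepressor and its histone demethylase, had 16.1, 15.9 and 15.0 FPKM in DNP and 8.66, 7.35 and 9.01 FPKM in PF. It fell by 0.84 (SE 0.0743, limma, adjusted p = 3.10e-05), and it had already fallen by 0.23 in DNP against Ctrl (limma, adjusted p = 0.00757).

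Zfp143, an activator of small nuclear RNA genes and many mRNA promoters, fell by 0.60 from 13.1 ± 0.362 to 8.31 ± 0.538 FPKM (SD, n = 3). Zfp384, a nuclear matrix protein that binds promoters of matrix-degrading enzymes, fell by 0.44 from 22.0 ± 0.512 to 15.9 ± 0.1002 FPKM (SD, n = 3). Zfp292, first known as an activator of the growth hormone gene, fell by 0.90 and Zfp608 by 0.82, whereas Zfp609, the relative of Zfp608, fell by 0.27. Zfp592 at −0.65 and Zfp507 at −0.52 were lower too, and the calls of Zfp143, Zfp384, Zfp292, Zfp608, Zfp609, Zfp592 and Zfp507 held without any single sample. Zfp503 was at −0.70. Zfp639 at −0.34 lost its call without DNP replicate 1 or 2 or PF replicate 2 (−0.42 to −0.27), and Zfp451 at −0.30 without the same samples (−0.36 to −0.25). Zfp91 at −0.11 lost it without DNP replicate 1, 2 or 3 or PF replicate 1 or 2 (−0.15 to −0.09), and also by median ratios. Zfp335, Zfp410, Zfp131 and Zfp64 had log2 fold changes of 0.03, −0.03, −0.02 and 0.03 and were not called, and neither were Zfp219 at −0.18 and Zfp652 at −0.23. Zfp335 and Zfp64 turned negative with either sum and Zfp410 and Zfp131 positive by median ratios, still without a call, and Zfp219 and Zfp652 were called lower with either sum.

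Members with roles in RNA processing, ribosomes or translation numbered 12, all tested. Of these 3 were lower in PF than in DNP, a share near the 30.7% of all genes tested, none was higher, against 18.1%, and 9 were not called by limma, with a median of −0.03 that turned to 0.03 by median ratios, where 1 was higher, as without PF replicate 3, and to 0.01 without PF replicate 2. With an unadjusted p under 0.05 in place of the adjusted one, 1 member, Zfp706, was higher. Zfp830, a protein of the spliceosome, had 9.70, 9.84 and 9.37 FPKM in DNP and 4.15, 4.06 and 4.77 FPKM in PF. This put PF well under DNP and under Ctrl, at 9.91, 10.8 and 9.87 FPKM, with a log2 fold change of −1.0 (SE 0.0702, limma, adjusted p = 7.71e-06). Zfp330, a nucleolar protein, fell by 0.49 from 18.3 ± 0.849 to 12.8 ± 0.498 FPKM, and Zfp346, which binds double-stranded RNA, fell by 0.46 from 5.67 ± 0.380 to 3.83 ± 0.0681 FPKM (SD, n = 3). Levels of Zfp622, a factor of large ribosomal subunit maturation, were 12.8 FPKM in DNP and 13.0 in PF, with a log2 fold change of 0.02. Zfp598 and Zfp207 had log2 fold changes of 0.01 and 0.04, and Zfp106 and Zfp638 of −0.01 and −0.05. Zfp593, Zfp277, Zfp706 and Zfp326 lay at −0.12, −0.17, 0.12 and 0.10. Zfp622, Zfp598 and Zfp207 turned negative with either sum and Zfp106 and Zfp638 positive by median ratios, without a call, and Zfp277 was called lower with either sum. Whether the groups of roles differ was not tested.

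Members on neither of these role lists numbered 123, of which 116 were tested. In PF against DNP 65 were lower, against 30.7% of all genes tested, 5 higher, against 18.1%, and 46 not called, and 10 of the 116 passed the minimum through 1 of the groups alone. The median was −0.31, which was −0.26 by median ratios, −0.41 with a sum of 1000000 and −0.39 with the mean sum. The genes through which KRAB proteins silence chromatin were followed as a list of 40 genes with values, of which 39 were tested. Of these 16 were lower, against 30.7% of all genes tested, and 9 higher, against 18.1%, with a median of −0.03. By median ratios the median was 0.02, with 14 lower and 13 higher, against 25.2% and 26.7% of all genes tested. With either sum the counts were 18 lower and 3 higher, against 40.2% to 41.7% and 8.03% to 8.42%. Trim28 itself, the protein that KRAB binds, had 97.7, 94.3 and 90.1 FPKM in DNP and 95.04, 94.98 and 97.9 FPKM in PF. These samples overlapped, with a log2 fold change of 0.03 (SE 0.0376, limma, adjusted p = 0.540). Setdb1, the methyltransferase it recruits, fell by 0.24 (limma, adjusted p = 0.00158). Trim28 and Setdb1 were chosen after their values were seen.

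Of this list the 5 lowest called genes were these. Morc2 fell by 0.91, Fam208a (Tasor), a core of the HUSH complex, by 0.74, Atf7ip, which stabilises Setdb1, by 0.57, Ehmt1 by 0.51 and Morc3 by 0.42. Among the 5 highest, Hells, a chromatin remodeller, rose by 0.39, the deacetylase Hdac2 by 0.36 and the heterochromatin protein Cbx1 by 0.29. Gatad2b at 0.22 and Gatad2a at 0.19 belong to the same deacetylase complex as Hdac2. Calls of Gatad2a and Gatad2b ended with either scaling to a common sum, and that of Gatad2b also without DNP replicate 1 or 3 or PF replicate 1 or 3 (0.17 to 0.30).

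**Figure D3:**
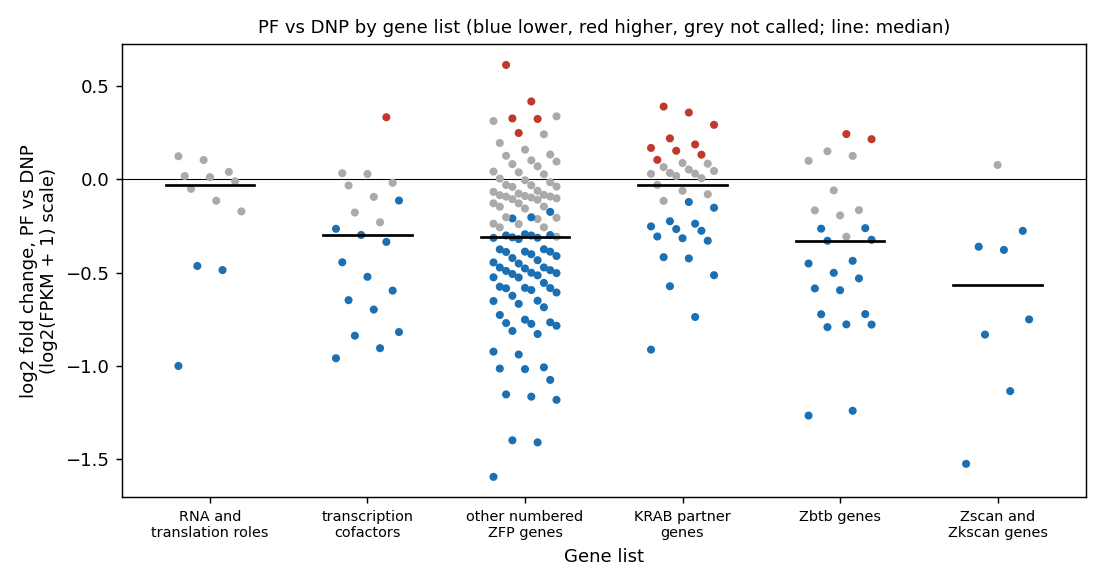
Log2 fold change of PF against DNP on the log2(FPKM + 1) scale (vertical axis) for each gene tested, by gene list (horizontal axis), with genes called lower in blue, called higher in red and not called in grey, and a line at each median. Medians are −0.03 for 12 members with RNA roles and for 39 KRAB partner genes, both above 0 by median ratios (0.03 and 0.02), and −0.30 and −0.31 for members acting as cofactors and for other members, both below 0 under each scaling.

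PF and Ctrl share their samples with the comparisons above, so their values are given side by side and add no separate evidence. Of 153 members tested, 98 were lower in PF than in Ctrl, against 34.6% of all 10361 genes tested, 10 were higher, against 23.1%, and 45 were not called. Among those tested, 12 on neither role list and 1 listed cofactor passed the minimum through 1 of the groups alone. The direction of these genes was fixed, so the counts describe the members tested and are no test of the family. In all 108 members or 70.6% were called, against 57.7% of all genes, and the median was −0.37 against −0.05. Of all genes called, 40.0% were higher as deposited, 51.1% by median ratios, 26.5% with a sum of 1000000 and 26.7% with the mean sum. By median ratios 86 of 151 members tested were lower and 13 higher, against 29.1% and 30.4% of all genes tested. With a sum of 1000000 they were 108 and 7 of 156, against 40.8% and 14.7%. With the mean sum they were 103 and 7 of 151, against 41.7% and 15.2%. The number of higher members was 6 without Ctrl replicate 1, 5 without PF replicate 1 and 6 without PF replicate 2. Over all genes tested 19.9%, 19.3% and 19.8% were then higher. Without any filter, 105 of 231 numbered ZFP genes were lower and 6 higher, against 21.4% and 12.6% of all 17417 genes.

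Zfp84 had the lowest log2 fold change in PF against Ctrl, with 5.22, 4.41 and 5.63 FPKM in Ctrl and 1.08, 1.2 and 1.35 FPKM in PF. The groups were far apart, and the log2 fold change was −1.46 (SE 0.0987, limma, adjusted p = 8.02e-06). Zfp458 fell by 1.44, Zfp46 by 1.35, Zfp748 by 1.29 and Zfp169 by 1.25. Zfp260, a cofactor of Gata4 in heart muscle cells, had 19.99, 18.2 and 19.2 FPKM in Ctrl, 16.6, 16.0 and 16.1 in DNP and 7.58, 8.29 and 8.11 in PF. None of its 3 groups overlapped, and it fell by 0.23 in DNP against Ctrl and by 0.94 in PF against DNP, and was at −1.16 in PF against Ctrl (SE 0.0586, limma, adjusted p = 1.99e-06). Zfp628 at −1.15, Zfp455 at −1.10, Zfp426 at −1.09 and Zfp830 at −1.07 completed the 10 lowest, and all 10 calls held without any single sample.

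Of the members higher in PF than in Ctrl, Zfp580 had the highest log2 fold change, with PF samples at 5.38, 3.97 and 3.79 FPKM against 1.59 to 1.81 FPKM in Ctrl. It rose by 0.99 (SE 0.116, limma, adjusted p = 0.000145), and its PF samples overlapped those of DNP, with 0.34 between these groups (limma, adjusted p = 0.0591). Zfp692 rose by 0.81, Zfp82 by 0.53 and Zfp706 by 0.23, and these calls held without any single sample. Zfp69 was at 0.44, but it reached the minimum in PF samples alone and so had to be higher in PF. In Zfp692 the PF samples were the highest and the Ctrl samples the lowest, while in Zfp82 and Zfp69 the PF samples were above DNP and Ctrl samples that overlapped. Zfp637 at 0.38 lost its call without Ctrl replicate 1 or 2 or PF replicate 1 or 2 (0.30 to 0.49), and Zfp326, part of a complex that couples transcription to splicing, at 0.33 without Ctrl replicate 1 or PF replicate 2 (0.23 to 0.41). Zfp428 at 0.32 lost it without Ctrl replicate 2 or 3 or PF replicate 1 or 2 (0.24 to 0.43), Zfp358 at 0.29 without Ctrl replicate 1 or 3 or PF replicate 1 (0.19 to 0.35), and Zfp382 at 0.29 without Ctrl replicate 1 or PF replicate 1 (0.25 to 0.32). Calls of Zfp428 and Zfp358 also ended with either sum (0.27 and 0.25, 0.24 and 0.23), and that of Zfp326 with a sum of 1000000 (0.26).

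Ordered by group mean, 84 of the 156 members ran from Ctrl through DNP to PF at the lowest level, as Zfp260 did, and 35 had DNP highest and PF lowest, as Zfp455 did. A further 11 had Ctrl highest and DNP lowest, as Zfp566 did, 9 had PF highest and DNP lowest, 9 had PF highest and Ctrl lowest, as Zfp692 did, and 8 had DNP highest and Ctrl lowest. Many of these means differ by less than the spread of 3 samples, so the orders describe the means and not called changes. The orders were not counted over all genes, so no background share stands beside them. Since 15 members reached the minimum in no PF sample, the choice of genes itself favoured orders with PF lowest.

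By gene identifier, 154 of 156 members were found in RefSeq's gene table for the rat assembly GRCr8, which served only for names and neighbours since the levels were made on rn6. Among them 7 carry another symbol there now. Zfp748, for example, is now Zfp729b, and the name Zfp772 has passed to the gene listed here as Zfp978. Chromosome 1 held 44 members, chromosome 4 held 14 and chromosome 10 held 11. In 15 places members lay directly beside each other, 35 members in all and at most 3 in a row. With values as deposited, of 34 such members tested in PF against DNP 18 were lower and 3 higher, with a median of −0.30, and of 113 members with no member beside them 63 were lower and 3 higher, also at −0.30, against 30.7% lower and 18.1% higher over all genes tested. Neighbours could go opposite ways. Zfp260, at −0.94, lies between Zfp566 at 0.25 and Zfp382 at 0.32 on chromosome 1, and Zfp692 at 0.33 lies beside Zfp672 at −0.43 on chromosome 10, of which Zfp672 was chosen after its value was seen.

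Promoters of the members were searched for short strings, since so many members were lower together. RefSeq promoters of GRCr8 were at hand for 138 members, and 250 bases before each gene's start were read on both strands. The search took 18 strings, all picked after the values were seen, the first 5 of them after looking at the promoters of a few members, and no test was made. Those 5 overlap, being parts of a single longer stretch. ACTACANNT was in 12.3% of member promoters, against 6.01% of those of other genes past the level minimum and 3.78% of all 27457, TACANNTCC in 13.0%, 6.40% and 4.12%, and CTACANNTC in 10.9%, 6.31% and 4.00%. CTACAATTC, a case of CTACANNTC, was in 2.90%, 0.841% and 0.368%, and ACTACA, the start of ACTACANNT, in 18.1%, 10.9% and 9.39%. Member promoters held these strings more often than other promoters, as the strings had been picked to show.

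The other 13 strings are letters bound by widely known factors or common promoter elements. The AP-1 string TGANTCA was in 5.80% of member promoters, 4.29% of other expressed genes' and 6.36% of all, and the CRE string TGACGTCA in 4.35%, 3.21% and 1.70%. GC boxes were less frequent in members than in other expressed genes, though more frequent than in all promoters, and neither difference was tested. GGGCGG was in 44.9%, 59.2% and 32.4%, and GGCGGG, which overlaps it, in 44.9%, 57.1% and 31.1%. GGGCGTG was in 7.97%, 13.8% and 7.08%, and the EGR string GCGTGGGCG in 0.725%, 0.914% and 0.514%. The NRF1 string GCGCNTGCG was in 13.0%, 13.6% and 5.58%, and the overlapping ETS strings CCGGAAG and TTCCGG in 16.7%, 17.8% and 7.74% and in 26.8%, 27.9% and 13.4%. CCAAT was in 41.3%, 37.1% and 34.3%, TATAAA in 9.42%, 6.26% and 13.1%, CACGTG in 5.80%, 8.65% and 5.80%, and CATGCG in 10.1%, 9.64% and 5.55%. In all, 10 strings were more frequent in members than in other expressed genes and 8 were less. The median log2 fold change of PF against DNP lay between −0.46 and −0.09 in members with a string and between −0.32 and −0.22 in members without it, and for TACANNTCC it was −0.30 with and −0.28 without. The widest gap was that of GCGCNTGCG, at −0.09 in 17 members with it and −0.31 in 115 without. Next came TGACGTCA at −0.46 with and −0.30 without, GGGCGTG at −0.44 and −0.30, GGGCGG at −0.17 and −0.32, CATGCG at −0.17 and −0.31, CCAAT at −0.35 and −0.22, CACGTG at −0.42 and −0.30, TATAAA at −0.39 and −0.27 and TTCCGG at −0.21 and −0.31. GGCGGG, which overlaps GGGCGG, was at −0.23 and −0.30. None of these differences was tested, and they go in both directions. Member promoters had a median of 56.2% G and C, against 60% in other expressed genes and 52.0% in all.

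Promoter sequences are shown for the 3 called members with the lowest and the 1 with the highest fold change in PF against DNP that had one, so that genes going opposite ways can be read side by side. Each is the 250 bases before the start of the gene in GRCr8 by RefSeq, written 5′ to 3′ on the strand of the gene, and capitals mark a match of TACANNTCC on either strand. They are Zfp455 at chr2:86426714-86426963 on the plus strand, Zfp628 at chr1:77949997-77950246 on the minus strand, Zfp458 at chr2:86401264-86401513 on the plus strand and Zfp82 at chr1:94438674-94438923 on the minus strand. Zfp455 and Zfp458 each hold 1 match and Zfp628 and Zfp82 hold 0, which says only that these letters are or are not in this window. A match is a description and not a site of binding.
Zfp455: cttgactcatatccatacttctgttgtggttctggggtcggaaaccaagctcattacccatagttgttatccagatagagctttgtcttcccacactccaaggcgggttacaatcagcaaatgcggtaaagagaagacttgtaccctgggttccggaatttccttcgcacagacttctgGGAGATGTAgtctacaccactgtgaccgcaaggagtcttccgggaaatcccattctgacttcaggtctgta
Zfp628: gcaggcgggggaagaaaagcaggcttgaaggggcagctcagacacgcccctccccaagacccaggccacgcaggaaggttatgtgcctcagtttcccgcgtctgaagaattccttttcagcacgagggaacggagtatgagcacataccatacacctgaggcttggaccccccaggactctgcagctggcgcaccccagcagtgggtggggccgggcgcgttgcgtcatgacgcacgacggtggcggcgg
Zfp458: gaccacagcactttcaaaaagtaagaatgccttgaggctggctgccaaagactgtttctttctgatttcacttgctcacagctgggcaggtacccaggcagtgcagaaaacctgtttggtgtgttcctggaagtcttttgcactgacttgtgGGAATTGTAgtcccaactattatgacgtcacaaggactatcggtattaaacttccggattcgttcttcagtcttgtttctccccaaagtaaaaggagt
Zfp82: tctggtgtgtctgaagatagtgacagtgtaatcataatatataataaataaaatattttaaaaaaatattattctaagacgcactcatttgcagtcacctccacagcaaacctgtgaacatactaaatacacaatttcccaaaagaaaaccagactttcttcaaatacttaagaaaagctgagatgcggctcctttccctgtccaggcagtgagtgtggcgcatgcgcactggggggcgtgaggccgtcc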

How the data were processed

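Values from RNA-seq of RBL-2H3 cells, 9 samples in 3 groups of 3, were used as the authors deposited them. By the study's methods and the submitters' processing notes, reads were filtered with SOAPnuke, mapped to rn6 with HISAT2 2.0.4, aligned with Bowtie2 2.2.5 and quantified with RSEM 1.2.12. The deposited values name no unit and were read as FPKM, since they have decimals and sum to different totals. The design also allowed for counts, and the test written there for FPKM was used.

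Genes were tested with limma 3.58.1 in R 4.3.3 on log2(FPKM + 1) with a variance trend, in the 6 samples of each comparison, for genes at 1 FPKM or more in at least 3 of them. Benjamini-Hochberg adjustment ran over all genes tested, and calls used an adjusted p of at most 0.05. The procedure was also run on simulated log2 values drawn from a normal distribution. Changes were planted only in genes above the filter level in all samples compared, so that run does not bear on members near the minimum. Alternatives were a pseudocount of 0.1, no filter, the filter over all 9 samples, a fit of all 9 samples, a replicate block, 3 scalings (median ratios over genes above 0 in all 9 samples, a sum of 1000000, the mean of the deposited sums), no trend, a threshold of 0.01, each sample left out, and PF replicate 1 alone.

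Members and gene lists were chosen with earlier results of these data known. Named genes were, in each comparison, the 10 called members with the lowest and the 10 with the highest log2 fold change, the 5 most abundant members, the 3 genes just inside and the 3 just outside the minimum, Zfp36, members of the role lists, and the 5 lowest and 5 highest called KRAB partner genes. Of 247 numbered ZFP symbols listed, 13 had no value and were not used. Features of the encoded proteins were not analysed here.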

Additional observations from a re-analysis of the deposited data

How the results depend on the processing

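The main directions were kept in every alternative run: numbered ZFP genes called lower outnumbered those called higher in PF against DNP and in PF against Ctrl, and no named member that was called changed sign where it was tested. In DNP against Ctrl the lower calls outnumbered the higher ones except with a threshold of 0.01, which gave 6 of each. Of the named members called, 12 of 33 in DNP against Ctrl, 28 of 40 in PF against DNP and 37 of 52 in PF against Ctrl were tested and called in each alternative. Zfp862 and Zfp503 in both PF comparisons and Zfp69 in PF against Ctrl were under the filter in some alternatives and are not among these.

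Counts of all members and of all genes called that moved by over 1.5 times were these, and the cause was not tested except where stated. In DNP against Ctrl, members called numbered 24 (8 higher, 16 lower) with no filter on low values, which puts more genes into the adjustment, and 12 (6 higher, 6 lower) at a threshold of 0.01, and lower members 17 with a sum of 1000000. At 0.01, 1469 genes were called in all, 817 higher and 652 lower. In PF against Ctrl, members called higher numbered 6 with no filter, 5 at 0.01 and 6 with PF replicate 1 alone. Genes called higher in PF against DNP numbered 875 with a sum of 1000000, 869 with the mean sum, 1101 at 0.01 and 1178 with PF replicate 1 alone, and those in PF against Ctrl 1575 with the mean sum and 1362 with PF replicate 1 alone, where the lone sample is assumed to vary like the other group. Among the lists in PF against DNP, KRAB partner genes called higher numbered 3 with either sum and 4 at 0.01, members on neither role list called higher 3 in each of these and with PF replicate 1 alone, and Zbtb genes called higher 4 by median ratios and 1 with either sum, no filter, the replicate block, a threshold of 0.01 or PF replicate 1 alone. Zbtb genes called higher in DNP against Ctrl numbered 1 at 0.01, and 1 Zscan or Zkscan gene was higher in PF against DNP with no filter.

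With each sample left out in turn, members called ranged from 20 to 31 in DNP against Ctrl (12 to 18 lower, 6 to 14 higher), from 70 to 87 in PF against DNP (64 to 80 lower, 5 to 7 higher) and from 87 to 104 in PF against Ctrl (81 to 95 lower, 5 to 9 higher). Genes called ranged from 2099 to 2736 (1014 to 1309 lower, 1060 to 1427 higher), from 4138 to 4796 (2626 to 3070 lower, 1499 to 1726 higher) and from 5147 to 5541 (3123 to 3422 lower, 1979 to 2230 higher).

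The replicate numbers did not pair the samples: deviations of same-numbered samples from their group means correlated at −0.0646, 0.0514 and −0.0739 in DNP against Ctrl, at 0.000490, −0.0822 and −0.0262 in PF against DNP and at 0.0908, 0.189 and 0.0830 in PF against Ctrl. With the replicate number as a block, 31 members (10 higher, 21 lower), 82 (5 and 77) and 103 (9 and 94) were called, and 2697, 4675 and 6009 genes. FPKM values carry no read depth, so low members cannot be given a counting error.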

Other observations

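Other zinc finger families, which the symbol rule does not take in, held genes that were lower in PF. Zbtb genes, which join fingers to a BTB domain that pairs proteins and binds corepressors, had 27 tested in PF against DNP, with 17 lower, against 30.7% of all genes tested, and 2 higher, against 18.1%, of which 1 was left without DNP replicate 3 or PF replicate 1 or 2. At least 1 FPKM was reached in 1 of the groups alone by 2 of the 27. Their median was −0.33, which was −0.30 by median ratios, −0.45 with a sum of 1000000 and −0.46 with the mean sum. Zscan and Zkscan genes, whose SCAN domain also pairs proteins, had 8 tested, with 7 lower, none higher in limma at adjusted or unadjusted p, and a median of −0.56 that was negative under each scaling. Of genes with Znf and a number as symbol, 3 were tested, and 2 of them passed the minimum through DNP alone and so had to be lower in PF, which leaves Znf740, with 7.01, 6.61 and 8.33 FPKM in DNP and 5.02, 5.42 and 4.80 FPKM in PF (chosen after its values were seen). In DNP against Ctrl, 3 of 27 Zbtb genes were higher and 6 lower, against 14.7% and 14.4% of all genes tested.

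The following genes were chosen after their values were seen. Zkscan1 had 4.09, 5.13 and 3.60 FPKM in DNP and 1.10, 0.69 and 0.70 FPKM in PF, which is −1.52 on the log2 scale (limma, adjusted p = 2.61e-05). Its Ctrl samples, at 4.36, 3.45 and 3.92 FPKM, overlapped those of DNP. Zbtb1, needed for lymphocyte development, had 28.5, 27.2 and 26.3 FPKM in Ctrl, 23.4, 22.7 and 23.4 in DNP and 8.89, 8.76 and 9.49 in PF, so that no groups overlapped and PF was lowest, at −1.27 against DNP (limma, adjusted p = 4.71e-07). Zbtb43 rose in DNP from 12.9 ± 0.400 to 20.7 ± 0.988 FPKM and stood at 8.17 ± 0.259 FPKM in PF (SD, n = 3), below both. Zbtb17 (Miz-1), a partner of Myc in repression, stood at 36.4 ± 1.89 FPKM in Ctrl, 29.4 ± 0.645 in DNP and 34.9 ± 1.72 in PF (SD, n = 3), with −0.30 in DNP against Ctrl and 0.24 in PF against DNP (limma, adjusted p = 0.00253 and 0.00224).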
